A study of Mus musculus with 20 samples.

Results

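This comparison asked how blood RNA differed between female C57BL/6J mice of 2 months (young) and of 24 months (old) that had received no radiation. It used the 5 arrays titled Young-UnIrradiated and the 5 titled Old-UnIrradiated, 10 of the 20 arrays of a radiation study; the other 10 arrays were from mice of the same ages bled 24 h after a dose of 4 Gy, 5 per age, and entered only the pooled estimate of spread and a closing comparison. Mice were bled from the heart when killed, into PAXgene tubes that lyse all blood cells, and cyanine-3 labelled cRNA was hybridised to one-colour Agilent mouse arrays. The submitters describe 5 independent experiments per age. The labels do not say whether an array stands for 1 animal or a pool, so p-values measure the spread between these samples, and 5 arrays a group limit the precision. A level here is the log2 signal of a probe minus the array's own 75th percentile, and a difference is the old mean minus the young mean on that scale. In bulk blood, fewer cells of a type and less RNA per cell cannot be told apart. Probes had to exceed background clearly, by the scanner software's own test, on 4 or more arrays within some group of 5. This left 21093 of 39429 probes, and the brightest probe of each gene gave 16542 genes.

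Whole-blood RNA comes from reticulocytes, platelets, neutrophils, monocytes and lymphocytes, so that any shift in the make-up of blood moves many transcripts together. Ageing in mice is known for a loss of naive T cells, which depend on the transcription factors Lef1 and Tcf7, and for a build-up of antigen-experienced T cells that carry the granzyme Gzmk, the chemokine Ccl5 and the inhibitory receptor PD-1. Plasma cells that secrete class-switched antibody also accumulate with age, and blood formation leans towards myeloid cells and platelets.

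Transcripts of liver marked the young arrays apart from the old ones before any blood gene was considered. The mean level of the hepatocyte list was 5.11, 6.47, -1.93, 7.67 and 0.80 on young replicates 1 to 5 and -4.07, -4.82, -4.18, -4.15 and -4.83 on old replicates 1 to 5. Young replicates 1, 2 and 4 were high, replicate 5 intermediate and replicate 3 lowest, and no young array overlapped the old ones. Albumin (Alb), the main plasma protein made by hepatocytes, had levels of 7.48, 8.84, -0.14, 9.80 and 3.26 on the young arrays and -5.75, -6.46, -5.74, -5.51 and -6.53 on the old arrays. On none of the old arrays was Alb well above background, so its difference is a bound of at least 959-fold. Fetuin (Ahsg) levels were 6.92, 8.46, -0.53, 9.53 and 2.57 on the young arrays and -5.67, -6.29, -5.70, -5.51 and -6.55 on the old arrays, also at background on all old arrays. The major urinary protein gene Mup3 likewise had a bound of at least 91-fold. Of 33 hepatocyte genes tested, 28 were called lower at 24 months and none higher, with a median difference of -6.78 when the 22 genes at background on all old arrays are set at their bounds. This list holds what the young arrays differed in most among themselves, and it is set apart from the blood genes below.

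Macrophages of the body cavities, which depend on the transcription factor Gata6, formed another group of this kind. Their list had mean levels of 0.11, 2.80, -0.62, 2.72 and 2.41 on the young arrays and 0.11, -0.48, -0.31, -0.97 and -0.92 on the old arrays. Here young replicates 2, 4 and 5 were high, whereas replicates 1 and 3 lay within or close to the old range. Single arrays carried other tissue genes: heart myosin Myh6 reached 0.12 on young replicate 3 against -6.34 on replicate 1. Lung surfactant gene Sftpc was above background on 4 young arrays and on no old array, with levels of -1.73, -1.09, -2.52, 0.25 and -5.39 on the young arrays and -4.83, -6.37, -5.77, -5.43 and -6.43 on the old arrays. The label of blood itself held, since alpha globin (Hba-a1) lay between 10.76 and 11.97 on all 10 arrays. Old arrays were also dimmer: the 75th percentile of signal averaged 141 ± 39.7 (SD, n = 5) against 208 ± 32.7 (SD, n = 5) on young arrays, two-sided exact permutation p = 0.0317. The share of spots well above background averaged 50.5% ± 2.43 on old and 55.6% ± 1.69 on young arrays (SD, n = 5 each), exact permutation p = 0.00794.

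**Figure D1:**
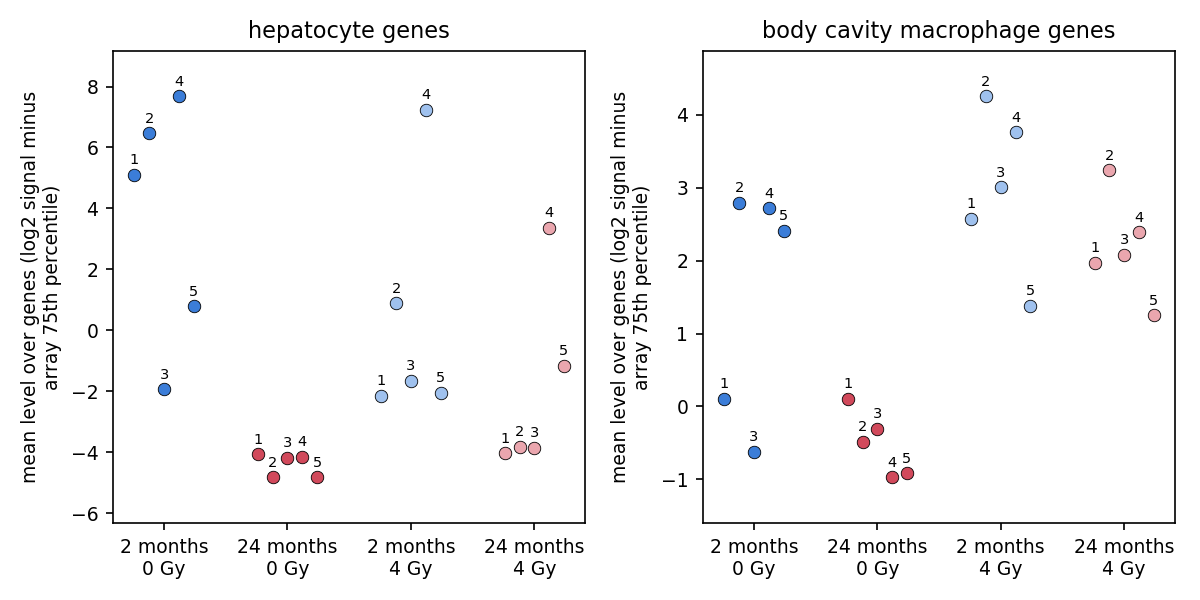
Mean level of the hepatocyte and body cavity macrophage gene lists on each of the 20 arrays (vertical axis, log2 signal minus the array's 75th percentile), by age and dose, with the replicate number above each point. In unirradiated blood the hepatocyte list reached 7.67 on young replicate 4 and stayed between -4.83 and -4.07 on the old arrays.

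Across all genes, limma called 1072 higher and 546 lower at 24 months (Benjamini-Hochberg adjusted p under 0.05), 6.48% and 3.3% of the 16542 tested, or 9.78% in either direction. The median difference over all genes was 0.10. Groups did not overlap for 1030 of the higher and 421 of the lower genes, against 16.7% and 6.38% of all genes without overlap in those directions. Among called genes, 686 were at least 2-fold higher and 497 at least 2-fold lower. Old arrays were close to one another, with correlations over all genes of 0.979 to 0.994, whereas young arrays ranged from 0.851 to 0.975. The counts moved with the choice of arrays. Fitting the 10 unirradiated arrays alone called 3169 higher and 1617 lower. Leaving out the 3 young arrays of high hepatocyte level (the liver-rich replicates 1, 2 and 4) left 6 higher and 3 lower. The sign of all 1618 calls was kept, but the remaining arrays had helped to choose these genes, most of them without overlap, so nothing is read from that. With the hepatocyte mean as a covariate, 63 were higher and 82 lower. No slide held both unirradiated ages, so no within-slide value exists, and with slide as a fixed block, which reaches this contrast only through the irradiated arrays, 0 were higher and 4 lower, with 306 genes at an unadjusted p under 0.05. Among the unirradiated arrays slide and age therefore cannot be told apart, and the part of the liver transcripts and of the dimmer signal in these counts was not tested. Under a scaling by probes above background on all arrays, the median over all genes became -0.07 and 48.7% of calls were higher, against 66.3% in the main setting and 44% in the authors' deposited values, so a small difference has no settled direction.

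**Figure D2:**
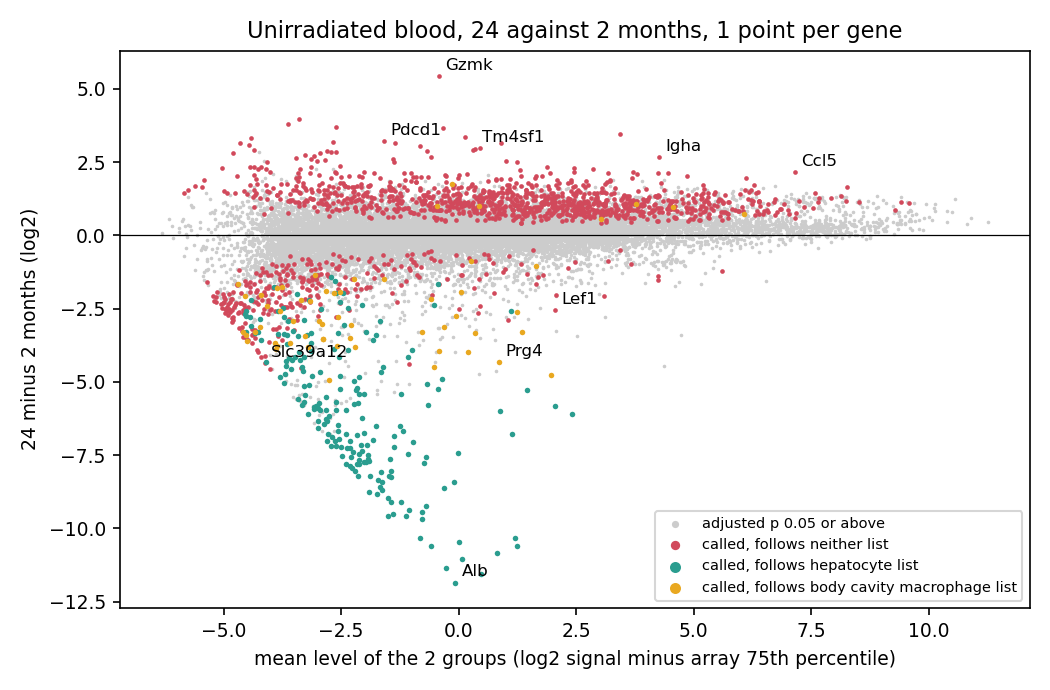
Difference between 24 and 2 months (vertical axis, log2) against the mean level of both groups (horizontal axis, log2 signal minus the array's 75th percentile) for the 16542 genes, coloured by whether a gene was called and whether its levels within groups followed the hepatocyte or the body cavity macrophage list (within-group r above 0.7). Liver-following genes form the lower tail, where old values at background make the plotted depth no measured size (Alb has a bound of at least 959-fold). The called higher genes are led by Gzmk at 5.44, and 7 of them follow the macrophage list. Only a positive r is marked, so genes whose level fell as a list rose are not shown as following it.

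Several genes of effector, memory and exhausted T cells were higher at 24 months, led by the granzyme Gzmk. Of 38 such genes tested, 12 were called higher and 0 lower, 31.6% against 6.48% of all genes, with a median difference of 0.86 against 0.10. Gzmk, a granule protease of antigen-experienced cytotoxic T cells, had levels of -3.39, -2.52, -3.12, -4.07 and -2.64 on the young arrays and 2.08, 2.54, 3.04, 1.75 and 2.06 on the old arrays. Every old array exceeded every young array, a difference of 5.44 ± 0.66 (SE), or 43.4-fold higher, adjusted p = 0.000214. Its probe lies at chr13:113961816-113961875 (mm9, minus strand). A dimmer Gzmk probe gave a smaller difference of 1.50, so the size depends on the probe. Pdcd1, which encodes the inhibitory receptor PD-1, had levels of -3.44, -3.22, -2.68, -3.62 and -2.96 on the young arrays and -0.17, 0.28, 0.95, -0.02 and -0.89 on the old arrays. No young array reached the lowest old one, and the difference was 3.21 ± 0.69 (SE), or 9.28-fold higher, adjusted p = 0.0086. Its probe lies at chr1:95935064-95935123 (mm9). Ccl5, a chemokine secreted by memory T cells and NK cells, had levels of 6.14, 5.52, 6.64, 5.72 and 6.32 on the young arrays and 7.96, 8.41, 8.48, 7.80 and 8.58 on the old arrays. Groups again did not overlap (2.17 ± 0.40 (SE), or 4.51-fold higher, adjusted p = 0.00357).

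Other receptors of experienced T cells followed. Tigit, an inhibitory receptor, differed by 3.07 ± 0.57 (SE), and Cd226, its activating counterpart, by 1.25 ± 0.33 (adjusted p = 0.00339 and 0.0241). The fractalkine receptor Cx3cr1 (1.88), the lectin receptor Klrg1 (1.54) and the adhesion receptor Cd44 (0.79) were also higher. Cx3cr1, S100a6, S100a4 and Casp1 are abundant in monocytes as well, whose genes are described below. Without the 3 young arrays of high hepatocyte level, Gzmk stood at 5.17 with adjusted p = 0.0507, Pdcd1 at 2.85 with 0.328, and no member of the list was called.

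Some naive T cell genes were lower at 24 months. Lef1, a transcription factor of naive T cells, had levels of 3.76, 2.69, 3.94, 3.0 and 3.25 on the young arrays and 0.75, 0.80, 0.16, 0.72 and 1.49 on the old arrays. All young arrays lay above all old ones, and the difference was -2.55 ± 0.31 (SE), or 5.84-fold lower, adjusted p = 0.000214. It remained called without the 3 liver-rich young arrays (-2.81, adjusted p = 0.00901). Its probe lies at chr3:130926200-130926259 (mm9, plus strand). Its partner Tcf7 was lower by a difference of -1.30 ± 0.40 (SE, adjusted p = 0.0443). Dapl1, a marker of quiescent naive T cells, had levels of 2.99, 2.01, 3.07, 1.75 and 2.59 on the young arrays and -1.33, 0.56, -1.54, -1.45 and 1.79 on the old arrays. Old replicates 2 and 5 stood well above the other old arrays in Dapl1, and replicate 5 reached the low end of the young range (-2.87 ± 0.59 (SE), or 7.33-fold lower, adjusted p = 0.00645). Igfbp4 was lower too (-3.39), but its levels within groups followed the hepatocyte list (r = 0.82). In all, 4 of 22 naive T cell genes were lower and 1, the signalling regulator Rgs10, higher; 3.3% of all genes were lower. A dimmer Rgs10 probe had the opposite sign, at -0.57. Fitting the 10 unirradiated arrays alone called 11 of 22 lower and 2 higher, where 1617 of all 16542 genes were lower and 3169 higher. With the hepatocyte covariate 7 were lower and 0 higher, where 82 of all genes were lower and 63 higher.

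Genes shared by all T cells were mostly not called. Of 25 tested, 1 was lower and 0 higher (4%, near the 3.3% of all genes lower), with a median of -0.26. The lower one was Trat1, a T cell receptor adaptor, at 0.09, -0.61, 0.37, -1.49 and -0.27 on the young arrays and -2.35, -2.01, -2.35, -1.93 and -1.67 on the old arrays, without overlap (-1.68 ± 0.43 (SE), or 3.2-fold lower, adjusted p = 0.0201). Cd3e, a subunit of the T cell receptor complex, was 4.08, 3.77, 4.61, 3.59 and 4.21 on the young arrays and 3.81, 3.97, 3.80, 3.97 and 4.27 on the old arrays. Its groups overlapped, and the 95% confidence interval of its difference was -1.0 to 0.82. Cd4 lay at 2.13 to 2.67 on young and 1.50 to 2.00 on old arrays without overlap, but did not pass the test (-0.82 ± 0.50, adjusted p = 0.308), and Cd8a was spread widely in both groups (-0.59 to 1.46). Ccr7, the chemokine receptor by which naive T cells enter lymph nodes, did not pass either (-0.95 ± 0.38, adjusted p = 0.117). Variable gene segments of T cell receptors had 2 of 42 members lower (4.76%, near the 3.3% of all genes), with a median of -0.39. On the 10 unirradiated arrays alone 9 of these 42 were lower and 0 higher, and 5 of the 25 shared T cell genes were lower and 0 higher. None of 16 regulatory and helper T cell genes was called, against 2 higher and 2 lower on the 10 unirradiated arrays alone. In limma on those 10 arrays, 1617 of all 16542 genes were lower and 3169 higher. That fit also called Cd4 (adjusted p = 0.00358) and Ccr7 (adjusted p = 0.0211) lower.

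**Figure D3:**
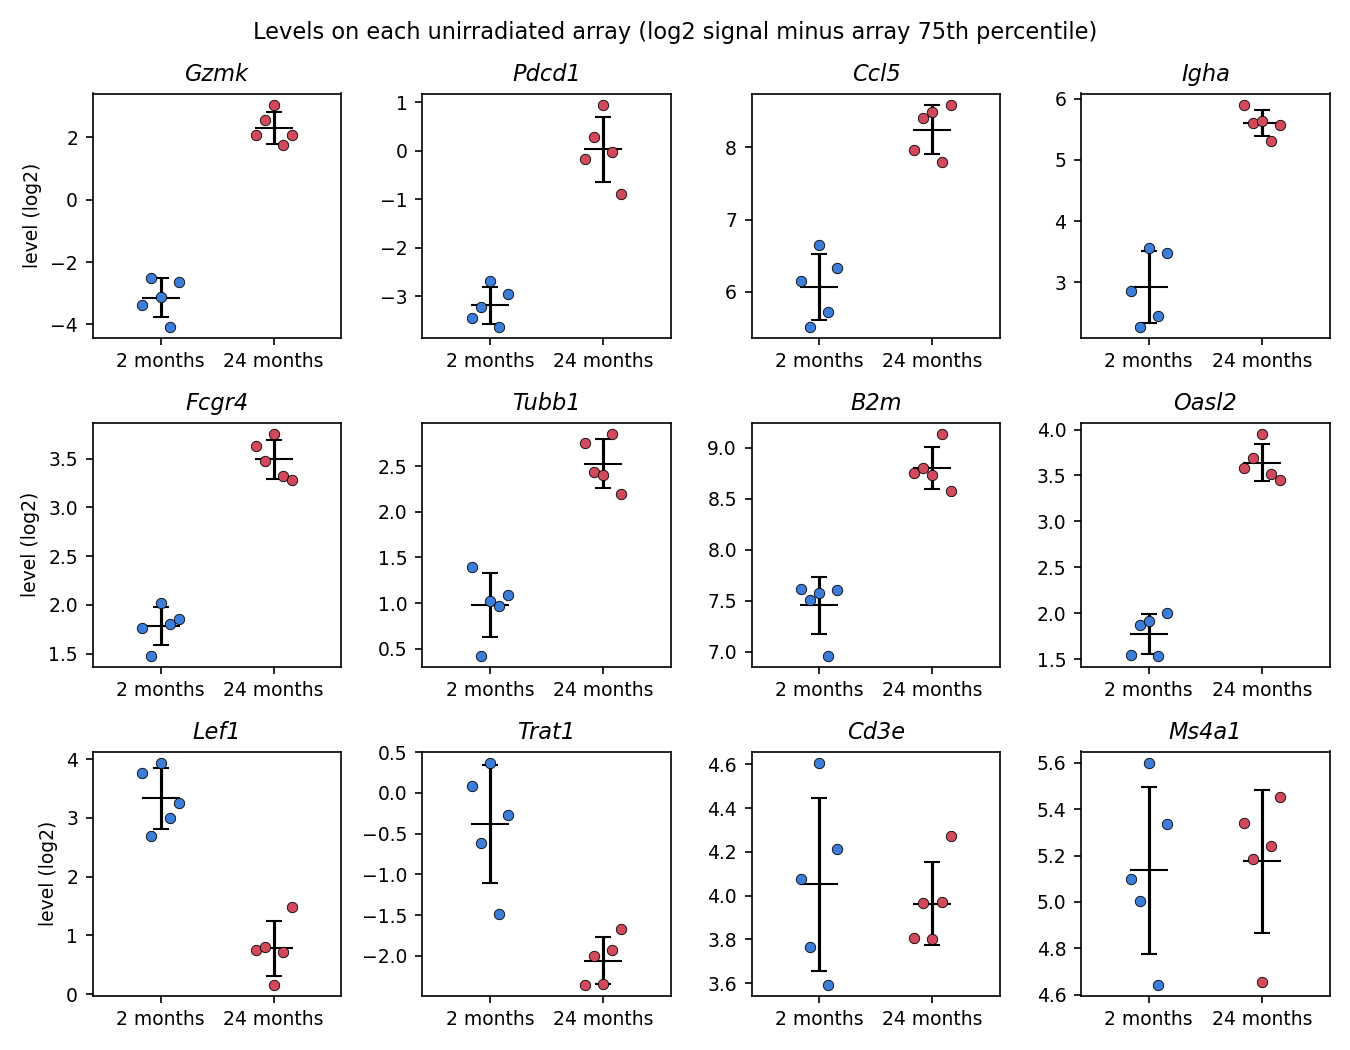
Levels of 12 genes on the 5 young and 5 old unirradiated arrays (vertical axes, log2 signal minus the array's 75th percentile; points are arrays, bars the mean and SD). Old arrays lie wholly above young ones for Gzmk, Pdcd1, Ccl5, Igha, Fcgr4, Tubb1, B2m and Oasl2 and wholly below for Lef1 and Trat1, while Cd3e and Ms4a1 overlap.

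Transcripts of class-switched antibody were higher at 24 months, whereas no B cell gene passed the test. Igha, the constant region of IgA, had levels of 2.86, 2.28, 3.56, 2.44 and 3.48 on the young arrays and 5.90, 5.61, 5.64, 5.31 and 5.58 on the old arrays. Old arrays were tightly grouped above all young ones (2.68 ± 0.58 (SE), or 6.42-fold higher, adjusted p = 0.00902). Ighg2c and Ighg2b, constant regions of IgG2c and IgG2b, lay at -2.24 to -0.91 and -2.88 to -1.56 on young arrays and at 0.85 to 2.71 and 0.16 to 1.19 on old arrays, differences of 3.35 ± 1.01 and 2.88 ± 0.76 (SE, adjusted p = 0.0431 and 0.0242). These constant regions are similar in sequence, and cross-hybridisation between them was not tested. Jchain, which joins IgA and IgM multimers, was -0.68, 2.49, -0.01, -0.93 and -0.24 on the young arrays and 2.48, 2.10, 2.30, 1.48 and 1.91 on the old arrays. Young replicate 2 alone reached the level of the old arrays, and the groups overlapped (1.93 ± 0.59 (SE), or 3.81-fold higher, adjusted p = 0.0467). Prdm1, the transcription factor of plasma cell differentiation, differed by 1.14 ± 0.33. In all 5 of 20 plasma cell and immunoglobulin genes were higher and 0 lower (25% against 6.48% of all genes), with a median of 0.54. With the hepatocyte mean as a covariate, Igha stood at 1.74 (adjusted p = 0.317).

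Of 28 B cell genes none was called in the fit over 20 arrays. On the 10 unirradiated arrays alone 1 of 28 was higher, where 3169 of all 16542 genes were higher. Ms4a1, which encodes the B cell surface protein CD20, had levels of 5.10, 5.0, 5.60, 4.64 and 5.33 on the young arrays and 5.34, 5.19, 4.66, 5.24 and 5.45 on the old arrays. Its groups overlapped, and the 95% confidence interval of its difference was -1.29 to 1.36. Variable segments of immunoglobulins, 129 tested, had no called member and a median of 0.19. Among 14 genes of age-associated and innate-like B cells 4 were higher (28.6% against 6.48% of all genes): Plac8 (1.54), Bhlhe41 (1.39), the tetraspanin Cd9 (1.13) and the integrin Itgax (0.96), with adjusted p = 0.0136, 0.00935, 0.0184 and 0.0154. Cd9 is also a platelet gene and Itgax a gene of monocytes and dendritic cells. Plac8 is grouped with monocyte genes and Bhlhe41 with clock genes further below, so these 4 do not stand for B cells alone. MHC class II genes, which B cells and dendritic cells use to present antigen, had 0 of 11 called, with differences from 0.01 to 0.89. On the 10 arrays alone 2 of 11 were higher, against 3169 of all 16542 genes.

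Many monocyte genes were higher at 24 months. Of 36 tested, 24 were higher and 0 lower, 66.7% against 6.48%, with a median of 1.18. Fcgr4, an activating Fc receptor of nonclassical monocytes, had levels of 1.77, 1.48, 2.02, 1.80 and 1.86 on the young arrays and 3.63, 3.48, 3.76, 3.32 and 3.29 on the old arrays. Both groups were tight and far apart (1.71 ± 0.17 (SE), or 3.27-fold higher, adjusted p = 2.91e-05). It remained called without the 3 young arrays of high hepatocyte level (1.55, adjusted p = 0.00901), the only member that did. The nuclear receptor Nr4a1, on which nonclassical monocytes depend, had levels of 3.72, 3.09, 3.99, 2.52 and 3.72 on the young arrays and 5.31, 5.32, 5.47, 4.77 and 5.10 on the old arrays, again without overlap (1.79 ± 0.36 (SE), or 3.45-fold higher, adjusted p = 0.00609). Treml4, Cd300e and Eno3, other nonclassical genes, differed by 2.08, 2.33 and 1.55. Also higher were the chemokine receptor Ccr2 (1.44 ± 0.27) and the coagulation factor subunit F13a1 (1.63 ± 0.41). Csf1r, the receptor for the monocyte growth factor, had levels of 4.21, 5.42, 4.93, 5.40 and 5.45 on the young arrays and 6.29, 6.29, 6.53, 5.83 and 5.98 on the old arrays, with young replicate 1 lowest (1.10 ± 0.25 (SE), or 2.14-fold higher, adjusted p = 0.0106). Without the 3 arrays the median of the list was 1.10.

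Mature neutrophil genes were also higher, 17 of 35 with 0 lower, 48.6% against 6.48%, with a median of 1.15. Acod1, which makes the antimicrobial metabolite itaconate, had levels of -3.87, -4.79, -3.79, -3.79 and -3.86 on the young arrays and -0.98, -1.27, -1.68, -0.55 and -1.41 on the old arrays. Young replicate 2 was the lowest and the old arrays lay well above (2.84 ± 0.27 (SE), or 7.17-fold higher, adjusted p = 2.91e-05). Fpr2, a receptor for formylated peptides, differed by 2.50 ± 0.37, and its relative Fpr1 by 1.79 ± 0.32 (SE). The calprotectin subunits S100a8 and S100a9, among the most abundant neutrophil proteins, differed by 1.98 ± 0.36 and 1.65 ± 0.28, and the collagenase Mmp8 by 1.94 ± 0.42 (adjusted p = 0.00339, 0.00223 and 0.00915). Ly6g, the surface marker by which mouse neutrophils are defined, did not pass (0.85 ± 0.29, adjusted p = 0.0726). Granule genes of immature neutrophils had 1 of 13 higher (7.69%, near the 6.48% of all genes), the chitinase-like protein Chil3 (2.01 ± 0.47).

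Some basophil and inflammatory genes were higher at 24 months. Mcpt8, a protease that defines mouse basophils, had levels of -3.92, -4.38, -3.56, -5.84 and -3.61 on the young arrays and -0.88, -0.89, -2.09, -1.27 and -0.28 on the old arrays. Every old array lay above every young one (3.18 ± 0.63, adjusted p = 0.00551), with 3 of 5 young arrays above background, and the high-affinity IgE receptor chain Fcer1a differed by 1.83 ± 0.37. Of 14 eosinophil and basophil genes 5 were higher and 1 lower (35.7% and 7.14%, against 6.48% of all genes higher and 3.3% lower). Of 30 inflammatory cytokine and NF-kB genes 7 were higher and 0 lower (23.3% against 6.48% higher), with a median of 0.74. The cytokines Il1b, Tnf and Il6 differed by 1.78 ± 0.36, 1.75 ± 0.42 and 2.13 ± 0.41 (adjusted p = 0.00573, 0.0151 and 0.00409). Il6 was dim, above background on 2 young and 5 old arrays. Tlr2, a sensor of bacterial lipoproteins, was -0.22, -0.10, -0.09, -0.07 and 0.17 on the young arrays and 1.84, 1.39, 1.54, 1.22 and 1.06 on the old arrays, with no overlap (1.47 ± 0.24 (SE), or 2.77-fold higher, adjusted p = 0.00165). Its adaptor Myd88 (1.08), the protease Casp1 (1.17) and the feedback inhibitor Socs3 (0.97) were higher as well.

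Many platelet genes were higher, 24 of 38 with 0 lower (63.2% against 6.48%), with a median of 1.20. On the 10 unirradiated arrays alone 34 of 38 were higher, against 3169 of all 16542 genes. Tubb1, the platelet tubulin, had levels of 1.39, 0.42, 1.02, 0.97 and 1.08 on the young arrays and 2.75, 2.43, 2.41, 2.86 and 2.19 on the old arrays, without overlap (1.55 ± 0.28 (SE), or 2.93-fold higher, adjusted p = 0.00284). Gp1bb, Gp5, Gp6 and Gp9, surface glycoproteins by which platelets bind the vessel wall, differed by 1.83, 1.48, 1.47 and 1.46. Ppbp, a chemokine of platelet granules, stood at 6.46 to 7.29 on young and 7.88 to 8.68 on old arrays (1.44 ± 0.32 (SE), or 2.71-fold higher, adjusted p = 0.0105). Pf4, another granule chemokine, overlapped and did not pass (0.68 ± 0.28, adjusted p = 0.136). The ADP receptor P2ry12 (1.44) was among the called genes. Leaving out the 3 liver-rich young arrays kept the median at 1.04 but called no member.

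Erythroid genes had a median of 0.97, with 45 of 47 differences above 0, yet 2 were called higher (4.26% against 6.48% of all genes). These were the membrane skeleton gene Sptb (1.39 ± 0.40) and the transcription factor Tal1 (1.08 ± 0.29), which platelets share. Alas2, the first enzyme of haem synthesis in red cells, was 10.37, 10.63, 10.59, 10.41 and 11.04 on the young arrays and 11.73, 10.84, 11.17, 11.45 and 10.82 on the old arrays, and its groups overlapped. The irradiated arrays, which enter the pooled spread, bore on this list. On the 10 unirradiated arrays alone 32 of 47 were higher, against 3169 of all 16542 genes. Leaving out the dim old irradiated replicate 5 called 21 of 47 higher, against 2452 of all 16542 genes. Progenitor genes had 4 of 13 higher, among them the transcription factor Gata2 (1.38 ± 0.24), and 1 lower (30.8% and 7.69%, against 6.48% of all genes higher and 3.3% lower). NK and cytotoxic genes had 4 of 30 higher and 1 lower (13.3% and 3.33%), the latter share being that of all genes. Gzmm, a granzyme of NK cells, had levels of -0.79, -1.56, -0.61, -1.64 and -1.17 on the young arrays and 1.44, 2.39, 0.06, 1.23 and 3.62 on the old arrays, lowest on replicate 3 and highest on replicate 5 among the old arrays, with no overlap (2.90 ± 0.51 (SE), or 7.49-fold higher, adjusted p = 0.00261), while the NK receptor Ncr1 overlapped (-0.38 to 1.77). The NK list's median of 0.49 turned to -0.58 with the hepatocyte mean as a covariate.

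Some genes of MHC class I presentation were higher at 24 months. Of 24 tested, 9 were higher and 0 lower, 37.5% against 6.48%, with a median of 0.60; 3 were called under scaling by probes above background on all arrays and under quantile normalization. B2m, the light chain that all class I molecules share, had levels of 7.61, 7.51, 7.58, 6.96 and 7.61 on the young arrays and 8.76, 8.80, 8.73, 9.14 and 8.58 on the old arrays. Young replicate 4 was the lowest and no young array reached the old ones (1.35 ± 0.31 (SE), or 2.54-fold higher, adjusted p = 0.0128). H2-D1, a classical class I heavy chain, was 6.34, 6.25, 6.66, 6.17 and 6.51 on the young arrays and 7.16, 7.31, 7.31, 7.58 and 7.13 on the old arrays (0.91 ± 0.23 (SE), or 1.88-fold higher, adjusted p = 0.0189). The heavy chains H2-Q2, H2-Q7, H2-T10, H2-T22 and H2-T23 were called at differences of 0.83, 0.69, 0.98, 0.91 and 0.73; class I genes are near copies of one another, and probes may share signal. Psmb8 and Psmb9, the immunoproteasome subunits that cut peptides for class I, differed by 0.77 ± 0.23 and 0.98 ± 0.22. Without the 3 arrays of high hepatocyte level the median was 0.44 and none was called.

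Interferon-stimulated genes gave 9 of 50 higher and 0 lower (18% against 6.48%), with a median of 0.46. Oasl2, of the oligoadenylate synthetase family that senses viral RNA, was 1.54, 1.87, 1.91, 1.54 and 2.0 on the young arrays and 3.58, 3.69, 3.96, 3.51 and 3.45 on the old arrays. Both groups were tight and apart (1.86 ± 0.31 (SE), or 3.64-fold higher, adjusted p = 0.00154). Zbp1, a sensor of Z-form nucleic acid, differed by 1.35 ± 0.18, Oas1a by 0.98 ± 0.21 and Ifit1, which binds uncapped viral RNA, by 0.96 ± 0.26 (adjusted p = 0.000463, 0.0086 and 0.029).

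Promoters are shown for the called genes of these lists that hold the letters of an interferon response element, the 2 of smallest adjusted p from each list. Genes on a chromosome held back from display were passed over in this choice. They come from RefSeq (GRCm38.p6), 250 bases before to 50 after the start of transcription, and capitals mark matches to GAAA, any 2 bases and GAAA again, on either strand, with overlapping matches joined. The windows are chr2:122147437-122147736 (+ strand) for B2m, chr17:36032652-36032951 (- strand) for H2-T23, chr5:120907476-120907775 (- strand) for Oas1a and chr19:34640639-34640938 (+ strand) for Ifit1.
B2m: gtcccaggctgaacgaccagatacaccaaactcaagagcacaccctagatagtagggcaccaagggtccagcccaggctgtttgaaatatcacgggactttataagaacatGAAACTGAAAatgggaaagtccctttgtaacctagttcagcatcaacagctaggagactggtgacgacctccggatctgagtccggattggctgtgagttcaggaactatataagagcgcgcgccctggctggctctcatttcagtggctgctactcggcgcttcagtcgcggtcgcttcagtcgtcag
H2-T23: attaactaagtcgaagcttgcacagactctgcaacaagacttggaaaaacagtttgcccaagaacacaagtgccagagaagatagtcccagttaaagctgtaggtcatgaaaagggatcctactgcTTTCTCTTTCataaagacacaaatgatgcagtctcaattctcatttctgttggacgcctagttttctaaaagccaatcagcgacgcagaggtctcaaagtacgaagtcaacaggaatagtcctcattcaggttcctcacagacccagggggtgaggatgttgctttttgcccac
Oas1a: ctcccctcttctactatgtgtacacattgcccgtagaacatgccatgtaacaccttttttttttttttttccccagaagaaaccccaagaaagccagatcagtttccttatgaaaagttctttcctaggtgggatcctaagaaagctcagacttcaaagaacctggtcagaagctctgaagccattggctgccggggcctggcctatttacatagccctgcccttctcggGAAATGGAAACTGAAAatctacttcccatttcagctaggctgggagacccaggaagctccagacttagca
Ifit1: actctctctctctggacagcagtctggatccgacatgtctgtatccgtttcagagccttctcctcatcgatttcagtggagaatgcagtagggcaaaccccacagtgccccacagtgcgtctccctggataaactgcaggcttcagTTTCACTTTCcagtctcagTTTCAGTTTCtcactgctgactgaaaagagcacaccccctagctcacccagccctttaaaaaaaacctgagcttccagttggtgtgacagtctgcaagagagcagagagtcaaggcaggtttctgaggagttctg
The first match began 139 bases before the start in B2m, 124 in H2-T23, 20 in Oas1a and 104 in Ifit1, Oas1a and Ifit1 holding 2 matches each. Of all promoter windows of this length, 3.44% held a match. Counted by gene, 422 of the 10832 tested genes with a window held a match (3.9%). Among genes with a window, it was present for 3 of 8 called and 2 of 12 uncalled class I genes, and for 4 of 6 called and 15 of 29 uncalled interferon-stimulated genes. A match is a string of letters in this window and says nothing about binding.

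Stress lists differed in how many members were called. Oxidative stress genes had 7 of 25 higher and 0 lower (28% against 6.48%), among them glutathione reductase Gsr (1.38 ± 0.25), the lipid peroxidase Gpx4 (1.19 ± 0.29) and the regulator Nfe2l2 (1.07 ± 0.26). Of 34 p53 target genes 2 were higher, Phlda3 (1.62 ± 0.21) and Pmaip1 (1.26 ± 0.21), and 1 lower (5.88% and 2.94%, no more than the 6.48% and 3.3% of all genes), with a median of 0.12 that turned to -0.06 under scaling by probes above background on all arrays. Cdkn1a, the p53-induced cell cycle inhibitor p21, was -3.43, -1.51, -2.69, -0.92 and -1.04 on the young arrays and -1.54, -1.99, -1.94, -1.95 and -2.29 on the old arrays, highest on young replicates 4 and 5 and lowest on young replicate 1. Cdkn2a, the senescence gene p16, was above background on 3 arrays of each age, with levels of -5.34 to -1.83 on young and -5.42 to -2.74 on old arrays. Neither was called, and the intervals were -0.94 to 0.89 for Cdkn1a and -2.07 to 1.48 for Cdkn2a. Of 20 senescence and secretory genes 4 were higher (20% against 6.48% of all genes), Il6, Tnf, the protease inhibitor Serpine2 and the urokinase receptor Plaur.

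In the fit over 20 arrays limma called no member of the housekeeping lists: 0 of 36 DNA repair, 33 cell cycle, 46 oxidative phosphorylation, 58 ribosomal protein and 14 heat shock genes. Their medians were -0.07, 0.50, -0.02, 0.24 and -0.02, against 0.10 over all genes. These lists were not without calls in other fits: on the 10 unirradiated arrays alone, where 3169 of all 16542 genes were called higher and 1617 lower, 13 of 33 cell cycle genes were higher and 0 lower, 4 DNA repair genes higher and 3 lower, 6 oxidative phosphorylation and 4 ribosomal protein genes higher, and 2 heat shock genes in each direction. For 13 of the cell cycle genes the old arrays lay wholly above the young ones, against 16.7% of all genes. Dendritic cell genes had 1 of 17 higher, proteasome and unfolded protein genes 2 of 30, and immediate early genes 2 of 17, the latter being Nr4a1 and Ier3, against 6.48% of all genes higher. Clock genes were split, with the repressor Nr1d1 (-2.59) and Cry2 (-0.78) lower and Bhlhe41 (1.39) and Nfil3 (0.78) higher of 12 tested, against 3.3% of all genes lower and 6.48% higher. Nr1d1 was above background on no old array and followed the hepatocyte list within groups (r = 0.78). The time of day of blood collection is not in the labels. Of 13 glucocorticoid-induced genes 2 were lower (15.4% against 3.3% of all genes). These were the steroid receptor chaperone Fkbp5 (-0.71 ± 0.21) and the cell cycle inhibitor Cdkn1c (-1.82 ± 0.55). The list's mean level was 1.25, 1.61, 0.48, 1.83 and 0.77 on young replicates 1 to 5, ranked as the hepatocyte list was. With the hepatocyte mean as a covariate in limma, 0 of 13 were called. Fkbp5 then stood at -0.53 (adjusted p = 0.43) and Cdkn1c at -0.61 (adjusted p = 0.715).

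**Figure D4:**
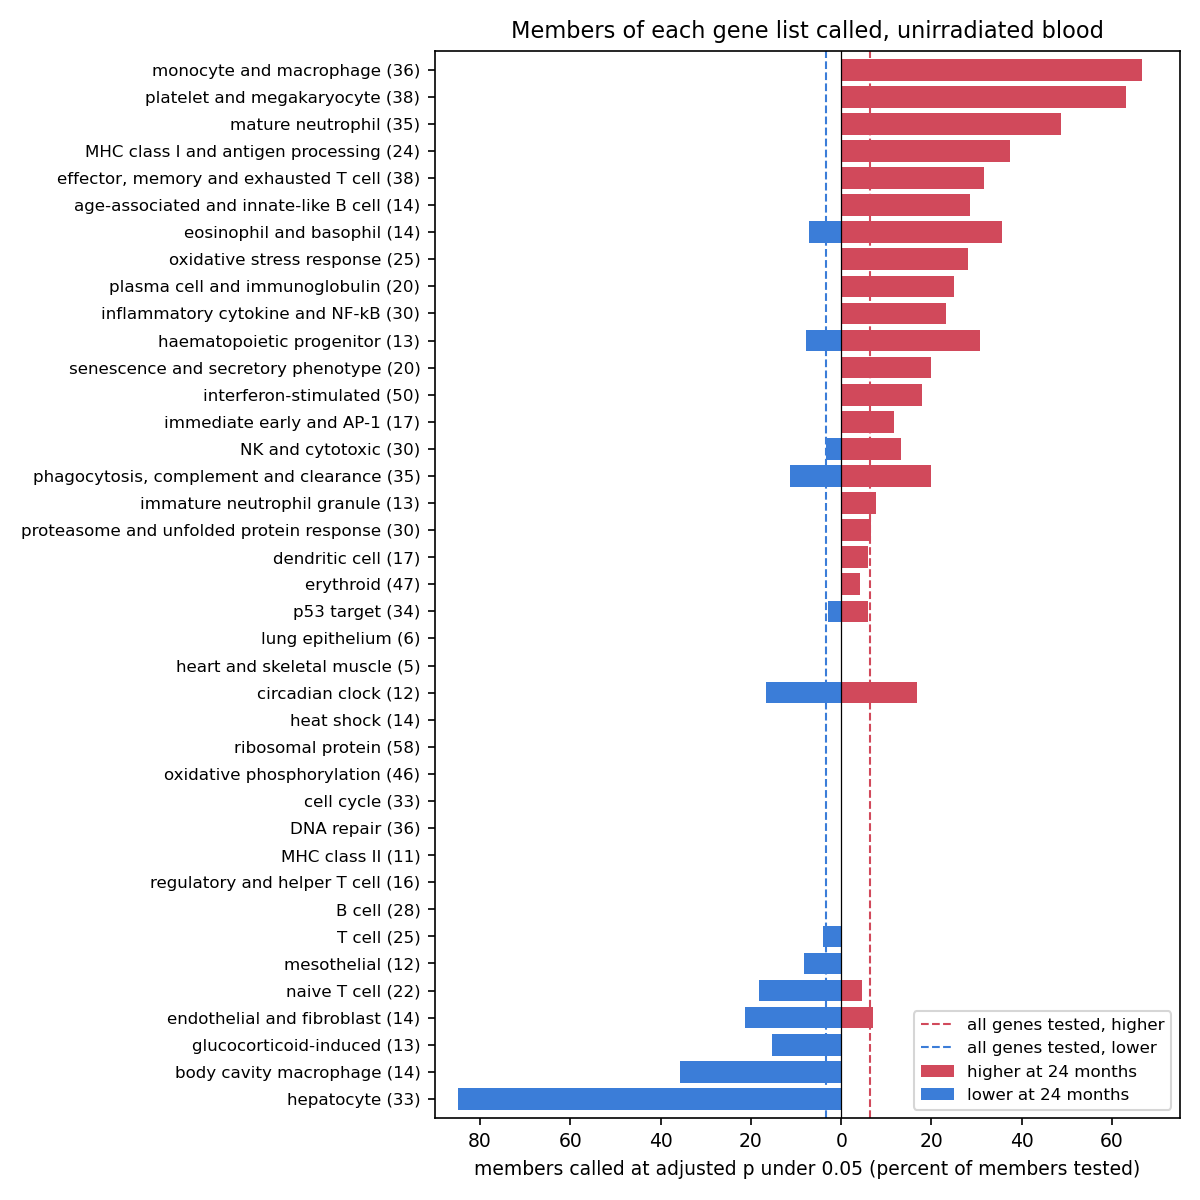
Percent of tested members called higher (to the right) or lower (to the left) at 24 months for each of 39 gene lists, with the number of members tested in brackets; dashed lines mark 6.48% and 3.3%, the shares of all 16542 genes. Monocyte, platelet and neutrophil lists stand farthest to the right and the hepatocyte list, with 28 of 33 lower, farthest to the left.

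Among the 15 largest increases over all genes were several that are not known as leukocyte genes. Tm4sf1, a tetraspanin-like surface protein, had levels of -1.38, -0.86, -1.52, -0.27 and -1.62 on the young arrays and 2.52, 1.79, 1.69, 1.97 and 1.21 on the old arrays. It was measured on all 10 arrays without overlap (2.97 ± 0.32 (SE), or 7.82-fold higher, adjusted p = 7.11e-05) and stayed called without the 3 liver-rich arrays (3.41, adjusted p = 0.00174). Its probe lies at chr3:57091569-57091628 (mm9, minus strand). Wwtr1, the transcriptional coactivator TAZ, was above background on 1 young and 5 old arrays and differed by 3.81 ± 0.54 (SE, adjusted p = 0.00062); since most young values are at background, no fold is given. Esm1, a secreted proteoglycan known from endothelium, was likewise above background on 1 young array, at -6.82, -5.23, -6.09, -4.82 and -3.96 on the young arrays and -1.73, -1.22, -1.03, -2.15 and -0.89 on the old arrays. All old arrays exceeded the young ones (3.98 ± 0.65, adjusted p = 0.00154), most of which are at background. Apol11b, an apolipoprotein L gene, was 1.50, 1.85, 2.25, 0.18 and 2.71 on the young arrays and 5.27, 5.12, 4.79, 5.53 and 5.11 on the old arrays. Its relative Apol10a was -2.71, -2.09, -1.98, -2.54 and -1.54 on the young arrays and 1.52, 1.47, 1.20, 1.81 and 1.54 on the old arrays. Both were measured on every array and did not overlap, with differences of 3.47 ± 0.88 and 3.68 ± 0.90 (adjusted p = 0.0199 and 0.0166). Gpr84, a receptor for medium-chain fatty acids on myeloid cells, differed by 2.73 ± 0.35 (SE, adjusted p = 0.00033), with 2 of 5 young arrays above background. The vomeronasal receptor gene Vmn1r219 was also among them, at 2.80 ± 0.72.

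The 15 largest decreases outside the hepatocyte list were mostly genes also known from liver, such as Mup19, Mup18, Mup17 and the alcohol dehydrogenase gene Adh1. Adh1 had levels of 4.13, 5.69, -1.23, 7.04 and -0.11 on the young arrays and -5.68, -6.33, -5.76, -5.54 and -6.56 on the old arrays, with the young arrays in the order that they had for Alb. Its bound was at least 143-fold. Over the 20 arrays, 712 genes followed the hepatocyte list within groups (r above 0.7), a cut chosen after the values were seen. Of the 546 lower genes 197 were among these, and of the 1072 higher genes 0. Only a positive r counts here, so a gene whose level fell as the list rose was not counted. The mean level of the 1072 higher genes was 0.69, 0.44, 0.72, 0.30 and 0.81 on young replicates 1 to 5. The part of the liver transcripts in that spread was not tested.

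Body cavity macrophage genes made up the next group of decreases, 5 of 14 tested (35.7% against 3.3% of all genes) with 0 higher and a median of -2.07. Prg4, lubricin, had levels of 1.03, 4.39, 0.27, 4.82 and 4.62 on the young arrays and -0.12, -1.43, -1.28, -1.68 and -1.98 on the old arrays. Young replicates 2, 4 and 5 stood high and replicates 1 and 3 just above the old arrays (-4.32 ± 0.94 (SE), or 20-fold lower, adjusted p = 0.00902). Gata6, likewise high on young replicates 2, 4 and 5, was -4.16, -0.27, -4.54, -0.51 and -0.22 on the young arrays and -5.61, -6.68, -5.69, -5.78 and -5.35 on the old arrays, and was above background on no old array (at least 4.34-fold). The phosphatidylserine receptor Timd4 (-3.78), Garnl3 (-3.81) and the ficolin Fcna (-3.29) were lower with it. The complement chains C1qa, C1qb and C1qc, made by tissue macrophages, were lower by differences of -3.31, -2.63 and -3.31, and C1qb followed the list within groups (r = 0.91). Of 14 endothelial and fibroblast genes 3 were lower (21.4% against 3.3% of all genes). These were the connective tissue genes decorin (Dcn, -4.39) and collagen Col3a1 (-3.12) and the endothelial receptor Eng (-1.50). The endothelial gene Esam (1.16) was 1 of 14 higher (7.14% against 6.48% of all genes). With quantile normalization 1 of 14 was lower and 0 higher. Krt8, a keratin of epithelium and mesothelium, was lower by at least 20.3-fold. It was the only called member of 12 mesothelial genes (8.33% against 3.3% of all genes lower). In that list 5 of 12 differences were above 0, and the median was -0.43. With the hepatocyte mean as a covariate in limma, Krt8 stood at -1.10 (adjusted p = 0.71). Without the 3 young arrays of high macrophage level, 77 genes were higher and 22 lower over all genes.

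A further 297 of the 546 lower genes followed neither list, and 122 of these were above background on no old array. For naming, 15 of the 297 were chosen after the values were seen. They were the largest decreases with r under 0.5 with both lists, groups without overlap and signal above background on all 5 young arrays. Unnamed loci were left out. The lack of overlap and the signal on all young arrays are thus part of the choice. Their mean level was -2.63, -1.91, -2.76, -2.31 and -2.67 on the young arrays and -5.72, -6.18, -5.43, -5.51 and -6.45 on the old arrays, where 0 or 1 of the 15 was above background. Slc39a12, a zinc transporter, led with -1.87, -1.22, -2.65, -1.53 and -2.43 on the young arrays and -6.14, -6.79, -5.59, -5.98 and -7.03 on the old arrays, a bound of at least 4.34-fold. The metalloprotease Adamts9 was -2.44, -1.40, -2.39, -2.58 and -2.81 on the young arrays and -6.02, -6.69, -5.66, -5.91 and -6.93 on the old arrays (at least 3.33-fold), and the transcription factor Arnt2 and the adhesion molecule Chl1 had bounds of at least 2.59-fold and 2.43-fold. The odorant receptor genes Olfr206 and Olfr1382 were in this set, and over all olfactory and vomeronasal receptor genes 8 of 117 were lower and 2 higher (6.84% and 1.71%, against 3.3% and 6.48% of all genes). Young unirradiated replicates 1 to 4 shared slide 1, and replicate 5 shared slide 2 with irradiated replicates 1 to 3 of the young mice, on which the 15 genes averaged -3.61, -4.20 and -3.97. Their level was -5.33 and -5.12 on the young irradiated arrays of slide 3. The part of the slide in these values was not tested apart from the fixed block above.

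The irradiated arrays allowed the same ages to be compared on other arrays, although both comparisons share 1 pooled estimate of spread. Old irradiated replicate 5 was dim, with a 75th percentile of 19.7 and 33.3% of spots well above background. The other old irradiated arrays had 75th percentiles of 118 to 212. All values of irradiated blood given here and below include the dim array, and this comparison is not given without it. There, 57 genes were higher and 36 lower at 24 months (0.345% and 0.218% of those tested), and 21 of the 57 were among the 1072, or 36.8% of the one list and 1.96% of the other. These 21 included Gzmk, Pdcd1, Tm4sf1, Esm1, Wwtr1, Apol11b, the opioid precursor Penk, the G protein subunit Gng3 and the lectin Clec2f. Gzmk differed by 5.92 ± 0.66 in irradiated blood (adjusted p = 0.000495), and the change between doses was 0.48 ± 0.93 (adjusted p = 0.836). Penk, above background on 1 of 5 young unirradiated arrays, had levels of -4.50 ± 0.28 on young and -2.24 ± 0.29 on old unirradiated arrays (SD, n = 5), and differed by 2.26 ± 0.42 without and 2.99 ± 0.42 with radiation. Lef1 differed by -0.90 ± 0.31 after irradiation and was not called (adjusted p = 0.267). Igha, Ccl5 and B2m kept their sign there, at 1.74, 1.63 and 0.78, without passing. Of the lower genes, 3 of 546 were also lower in irradiated blood, among them the ribosomal protein gene Rps4l (-2.04 and -1.93), and 9 genes were called in opposite directions at the 2 doses.

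Over all higher genes, the differences in irradiated blood centred near 0. The 1072 higher genes had a median difference of 1.14 in unirradiated blood and 0.004 in irradiated blood, where 51.2% of them were above 0, as were 51.5% of all genes. Their mean level, whose contrast in unirradiated blood chose them, ran from 0.30 to 0.81 on the young unirradiated arrays and 1.64 to 2.04 on the old ones, and from 1.30 to 2.34 and 1.72 to 2.42 on the irradiated arrays of young and old mice. The test of the change between doses called 198 of them, against 1.74% of all genes (0.332% upward and 1.41% downward); this test subtracts the contrast that chose the genes, so nothing is read from that share. Monocyte genes had a median of -0.26 in irradiated blood, with 14 of 36 called for the change, and the same holds for the counts of called members here. Ms4a6c, a monocyte membrane gene, went from 2.22 ± 0.31 to -0.85 ± 0.31, a change of -3.07 ± 0.44 (adjusted p = 0.00167). Neutrophil genes had a median of 0.02 with 5 of 35 called, and interferon-stimulated genes a median of -0.72 with 18 of 50 called for it. Oas1a was higher at 24 months without radiation (0.98 ± 0.21) and lower with it (-1.25 ± 0.21). Platelet genes had a median of 0.30 there with 0 of 38 called for the change, so for this list a change between doses was not detected.

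**Figure D5:**
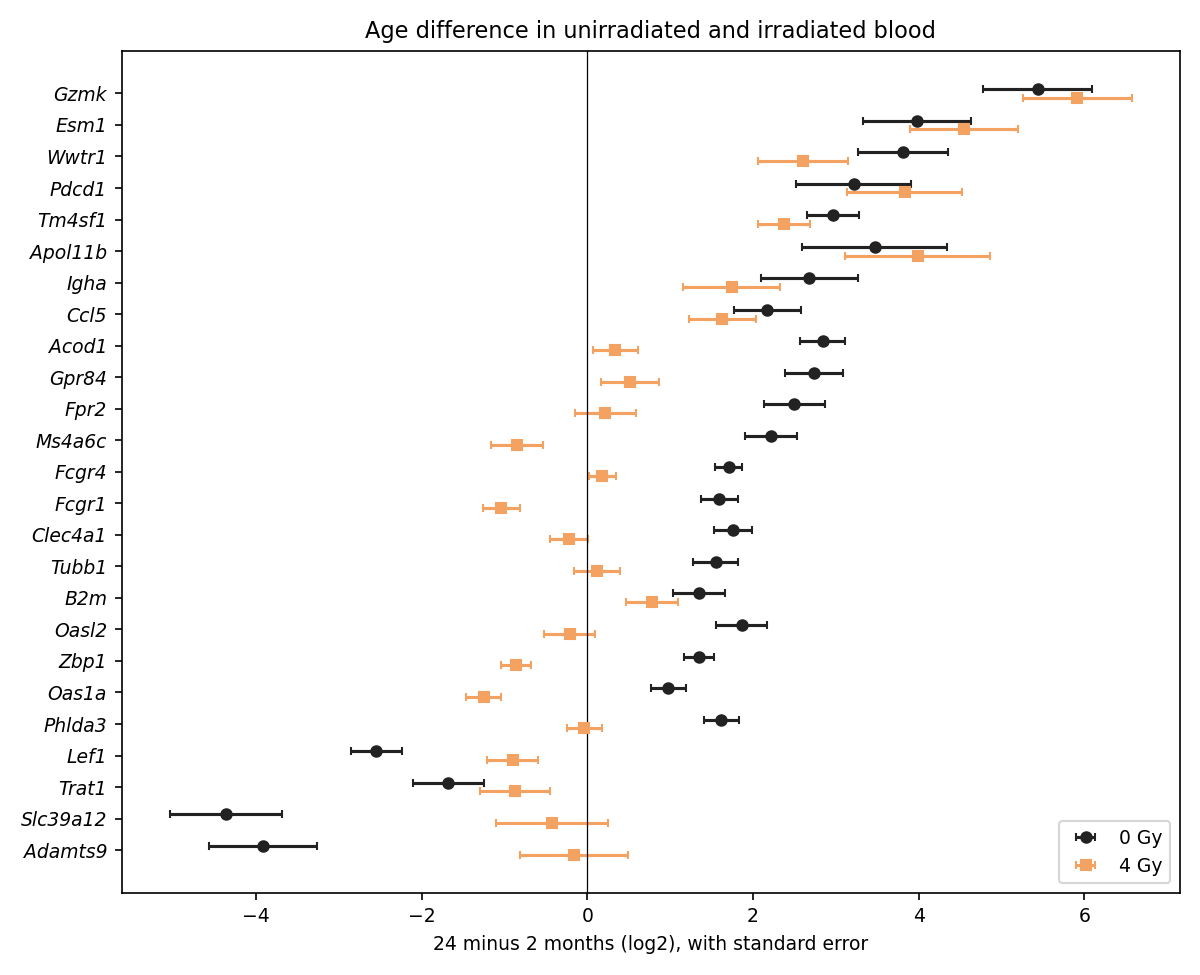
Differences between 24 and 2 months with standard errors (horizontal axis, log2) for 25 genes in unirradiated blood (circles, 5 arrays per age) and irradiated blood (squares, 5 arrays per age). T cell genes and Tm4sf1, Esm1 and Wwtr1 lie on the same side at both doses, whereas the monocyte gene Ms4a6c and the interferon-stimulated gene Oas1a lie to the right of 0 without radiation and to the left of 0 with it.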

How the data were processed

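RNA of unirradiated blood was measured on 10 one-colour arrays. The deposited scanner files hold intensity values from Agilent Feature Extraction 12.0.2 (per the submitters' processing notes), detrended within each array by that software, with surrogate values near background, and not normalized between arrays (per the file headers, which give probe positions in mm9). Control spots and outlier flags were left out, spots of a probe averaged, and the log2 processed signal reduced by each array's 75th percentile. The series' value table, deposited by the authors on a log2 scale, correlated with the scanner values at 0.988 to 1.000 per array, with column medians of 5.18 to 5.76; its normalization is not given in the sources used here. Old irradiated replicate 5 was dim. limma 3.58.1 (R 4.3.3) fitted the 4 group means over all 20 arrays, with Benjamini-Hochberg adjustment. A bound compares the bright mean with the detection floor of each dim array, or the probe's own value where higher. Genes were named by accession, symbol, synonym or description through RefSeq tables.

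The arrays, gene lists and rules were chosen with earlier results of these data known. Named genes were called, did not overlap and exceeded background on each array of the brighter group (15 largest per direction, leaving out the hepatocyte list and unnamed loci), or the up to 4 called members of smallest adjusted p per list (up to 2 where none was called), with a fixed set of cell type and ageing genes; other genes named are further called members or were chosen after their values were seen. Eda2r, on that list, did not pass the filter, and a few of the genes chosen by these rules are not reported here. limma was tested on simulated data. Replicate numbers did not pair the samples: same-numbered deviations correlated at -0.18 to 0.03. Alternatives covered background correction, scaling, filters, slide and replicate blocks, array weights, the authors' values and left-out arrays.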

Additional observations from a re-analysis of the deposited data

Results flagged for a closer look

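Single arrays lay far from the other 4 of their group in 22 of 408 comparisons over the named genes and lists, where chance alone flags about 1 in 20 groups. The count is near that rate, so no single flag is read as a result. Values are log2 levels. Young replicate 2 stood apart in Acod1 (-4.80), Fcer1a (-1.13), Jchain (2.49) and Olfr206 (-1.54). Young replicate 4 stood apart in B2m (6.96), Socs3 (1.11), Nusap1 (1.89) and Dnajb4 (-1.79). Young replicate 5 stood apart in G6pdx (3.03), Fcer1g (5.93) and lung epithelium list (-2.25). Old replicate 1 stood apart in Xpa (1.78), Rps9 (9.01), Rps23 (8.29), Cdkn1c (-2.41), oxidative phosphorylation list (4.20), glucocorticoid-induced list (0.56) and T cell receptor variable list (-2.88). Old replicate 3 stood apart in Hamp2 (-4.78). Old replicate 4 stood apart in Cx3cr1 (3.72) and Cd4 (2.0). Old replicate 5 stood apart in DNA repair list (0.24).

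The age difference changed with radiation, by the interaction term of the limma fit, for 30 of 162 named genes, against 1.74% of all genes. Many named genes were chosen by the unirradiated contrast, which the term subtracts, so nothing is read from their number. Values are the age difference in irradiated minus that in unirradiated blood on the log2 scale. Genes of monocytes and their Fc receptor signalling were Ms4a6c (-3.07), Fcgr1 (-2.63), Plac8 (-2.13), Clec4a1 (-1.98), Tyrobp (-1.63) and Fcgr4 (-1.52). Genes of neutrophils and activated myeloid cells were Acod1 (-2.50), Fpr2 (-2.28), Gpr84 (-2.22) and Clec4e (-1.70). Interferon-stimulated genes were Oas1a (-2.23), Zbp1 (-2.20), Oasl2 (-2.08) and Xaf1 (-1.41), inflammatory genes Il6 (-2.97), Tlr2 (-1.67), Plaur (-1.47) and Socs3 (-1.13) and p53 targets Phlda3 (-1.66) and Pmaip1 (-1.26). The others with a downward change of the age difference were Gsr (-1.72), Gata2 (-1.36), S1pr5 (-1.27), Nfil3 (-1.22) and G6pdx (-1.01). Genes with an upward change of the age difference were Trnp1 (3.31), Olfr206 (3.64), Adamts9 (3.76), Arnt2 (3.81) and Slc39a12 (3.94). All were among the 15 decreases chosen for naming that followed neither tissue list. None was well above background on any old unirradiated array, so their sizes are not exact. On the dim old irradiated replicate 5 those 15 genes averaged -3.36 with 0 above background. Their mean was -6.17 to -5.18 on the other old irradiated arrays.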

How the results depend on the processing

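The main setting called 1072 genes higher and 546 lower. Calls higher and lower were 25 and 8 with normexp background correction, 667 and 702 when scaled over probes above background on all arrays, 533 and 290 with no filter, 863 and 104 over probes above background on all 10 arrays, and 135 and 172 in the authors' values. They were 3767 and 2336 with slide as a random block (correlation -0.20), 0 and 4 with slide as a fixed block, 4339 and 2670 with array weights, 3169 and 1617 on the 10 arrays alone, and 2452 and 1091 without the dim old irradiated replicate 5. They were 63 and 82 with the hepatocyte covariate, 6 and 3 without the 3 young arrays of high hepatocyte level, and, in alternatives chosen after seeing the data, 256 and 127 on 10 arrays with that covariate, 208 and 137 with both list means as covariates, 366 and 577 with the covariate and without the dim array, and 77 and 22 without young replicates 2, 4 and 5. Leaving out single arrays gave 478 to 994 higher and 202 to 695 lower. The removals that moved a count by over 1.5 times were young replicates 1 (773 and 335), 2 (478 and 202) and 4 (540 and 220) and old replicates 1 (480 higher of 732 called), 2 (589 and 249), 3 (664 and 314), 4 (674 and 324) and 5 (816 and 327). Quantile normalization (886 and 384), trended variance (1140 and 534), the replicate block (1393 and 789), every probe (1294 and 647) and a filter on the unirradiated groups (1069 and 538) stayed within 1.5 times. The replicate numbers did not pair the samples; with the replicate block 1585 of the 1618 calls were also called. The cause of these shifts was not tested, except that a covariate of liver level removes liver genes by construction. Old arrays, being dimmer, had fewer spots above background, which limits bounds on dim genes.

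Of 132 called named genes, 117 kept their sign in every setting. Signs turned for Tnfrsf10b (0.20), Nr1d1 (0.023) and Tpbg (0.063) with normexp correction and for Cd300lf (-0.95), a different probe, in the authors' values. With the hepatocyte covariate they turned for Mup5 (0.67), F2 (0.36), Cyp2a4 (0.34), Pzp (0.61) and Uox (0.36); without the dim array as well, Mup5 (0.69), F2 (0.35), Cyp2a4 (0.42), Pzp (0.60) and Uox (0.36); with both covariates, Mup5 (0.60), F2 (0.33), Cyp2a4 (0.54), Pzp (0.60), Uox (0.27) and Eng (0.13); on 10 arrays, Mup5 (0.31), F2 (0.087), Cyp2a4 (0.41), Pzp (0.33), Hamp2 (0.81), Uox (0.43), Cyp2f2 (0.82), Egfl7 (0.38), Nr1d1 (0.002), Krt8 (0.07), Eng (0.034) and Mup3 (0.18).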

Other observations

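Some gene groups fell outside the comparisons above. Clearance genes of phagocytes were split: of 35 tested, 7 were higher and 4 lower (20% and 11.4%, against 6.48% of all genes higher and 3.3% lower), the higher among them the lipid receptor Trem2 (1.01 ± 0.28), annexin Anxa1 (1.22 ± 0.34) and the signalling adaptor Fcer1g (1.47 ± 0.24), and the lower being the C1q chains and the bridging protein Mfge8 (-1.04 ± 0.27). Alox15, a lipoxygenase of eosinophils and body cavity macrophages, was the 1 eosinophil and basophil gene lower at 24 months (-2.74 ± 0.71), while the basophil protease Prss34 was higher (1.19 ± 0.32). The T cell receptor segment Trav11d was lower at both doses, by differences of -1.80 and -2.96, and Trav14-1 without radiation (-2.27 ± 0.53). Muscle and lung lists had 0 of 5 and 0 of 6 genes called. The body cavity macrophage list had mean levels of 2.58, 4.25, 3.01, 3.77 and 1.38 on young and 1.98, 3.24, 2.08, 2.39 and 1.25 on old irradiated arrays; all of the latter lay above the old unirradiated arrays, whereas the young groups overlapped.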
